A study of Mus musculus with 24 samples.

Results

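Respiratory complex I was followed here through the genes whose annotated symbol starts with Nduf. The array annotation held 44 such genes on 68 probes, of 19057 annotated genes in all, and 41 of the 44 had a probe above background on at least 6 arrays and were tested among 10759 genes. The 41 comprised 5 of 6 nuclear-encoded core subunits, 27 of 28 accessory subunits and 7 of 8 assembly factors. They also included Ndufa4, which carries an Nduf name but is now known as a subunit of complex IV, and Ndufs5-ps, a transcribed pseudogene. The core subunit Ndufs1, the accessory subunit Ndufb11 and the assembly factor Ndufaf6 were above background on 0 of 24 arrays with any probe and have no level here.

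The RNA came from mouse spermatids hybridised to Illumina bead arrays, in which the brightness of a bead type reports the amount of a transcript. The groups were wild-type round spermatids (RS_wt), round spermatids of the Cbp/p300 post-meiotic knock down (RS_mut), wild-type condensing spermatids (CS_wt) and condensing spermatids of the knock down (CS_mut), each with 6 arrays from animals of 7 weeks. The labels name neither the promoter behind the knock down nor the residual amount of either protein. They do not state that the 6 samples of a group came from different animals, and p-values reflect sample-to-sample spread, which may be technical. The study asked which gene expression programme of late spermatogenesis, metabolism included, depends on CBP and p300, a related pair of histone acetyltransferases that act as transcriptional coactivators.

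Complex I is the entry point of the mitochondrial respiratory chain: it takes electrons from NADH, passes them along iron-sulphur clusters to ubiquinone and pumps protons across the inner membrane. Its peripheral arm holds the flavin and the clusters, and its membrane arm holds the proton-pumping core, which is encoded by mitochondrial DNA and was not analysed here. Core subunits carry out catalysis, accessory subunits surround and stabilise them, and assembly factors help to build the complex without staying in it. Round spermatids are early haploid cells, and condensing spermatids are later cells that compact their chromatin and gather their mitochondria along the forming flagellum.

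An array detected 15687 to 18411 of 45281 probes, and arrays of a group correlated at 0.970 to 0.995. Of 14 spermatid markers listed 13 were tested, and markers such as Tnp1 and Prm1 were above background on all 24 arrays. Cyct, also listed, was above background on 0 of 24. Transcript of the targeted genes did not differ detectably with genotype: the log2 difference, knock down minus wild type, was 0.01 ± 0.17 (SE) for Crebbp and 0.05 ± 0.17 for Ep300 in round spermatids, and -0.11 ± 0.17 and -0.02 ± 0.17 in the condensing stage (limma adjusted p of 0.935 or more). The genotype labels therefore have no check in these probes. Among round arrays, RS_wt 3, RS_mut 8 and RS_mut 10 were low for most Nduf genes, and RS_wt 1, RS_wt 2, RS_mut 11 and RS_mut 12 were high, so the counts that follow are given with all arrays and without each of these sets. Both sets were chosen after the values were seen.

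From wild-type round to wild-type condensing spermatids, 12 of 41 Nduf genes rose (29.3%), by up to 2.80-fold, and 7 fell (17.1%), by up to 1.44-fold. Of all genes tested 30.3% rose and 33.8% fell, 64.2% in all. The risers were 10 accessory subunits, the core subunit Ndufs8 and Ndufa4. The fallers were 2 accessory subunits, the core subunits Ndufv2 and Ndufs3 and 3 assembly factors, with Ndufs4 counted among them by its brightest probe although its probes disagreed. The median log2 difference was 0.14 over the Nduf genes (0.09 without RS_wt 3) and -0.03 over all genes. Values are log2 normalised intensities unless named otherwise, and a gene counts as changed at a limma adjusted p under 0.05 over all genes. In bulk RNA, a change in the mix of cells and a change in RNA per cell cannot be told apart.

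**Figure D1:**
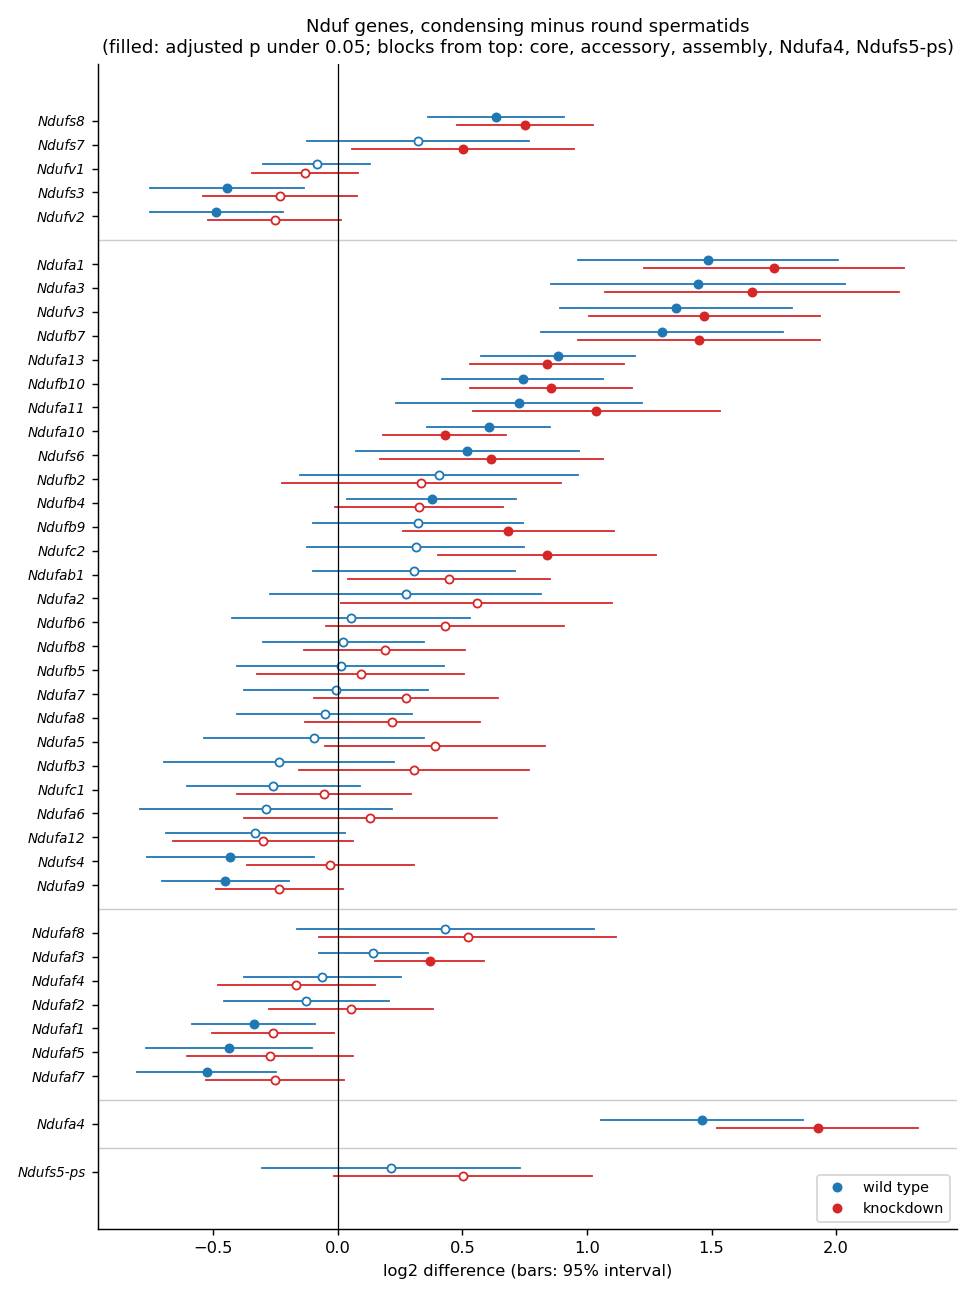
The log2 difference of each of the 41 Nduf genes, condensing minus round, is plotted for wild type (blue) and knock down (red) with its 95% interval, in blocks by role. Filled points passed an adjusted p under 0.05: in wild type 12 lie above and 7 below the line at 0, and in the knock down 15 lie above and 0 below it.

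Arm by arm, 8 of 17 tested genes of the membrane arm rose in wild type and 0 fell, with a median log2 difference of 0.38. One of the 8, Ndufb4, passed the filter on detection mainly through condensing arrays, where it is higher, and without it 7 of 16 rose with a median of 0.36. In the peripheral arm 3 of 14 rose and 4 fell, with a median of -0.09. Without Ndufs4, 3 of 13 rose and 3 fell. By role, 10 of 27 accessory subunits rose and 2 fell, 1 of 5 nuclear core subunits rose and 2 fell, and 0 of 7 assembly factors rose and 3 fell. The counts with all arrays stand against the 30.3% of all genes that rose and 33.8% that fell. Differences between the classes were not tested. Calls moved with the round arrays that stood apart. Without the 3 low ones, Ndufa8 (-0.20) and Ndufb3 (-0.38) of the membrane arm and Ndufa12 (-0.45) of the peripheral arm fell. Ndufb4 and Ndufs6 no longer passed. Without the 4 high ones, Ndufb2 and Ndufc2 of the membrane arm and Ndufa2, Ndufa7 and Ndufs7 of the peripheral arm also rose. Ndufs3, Ndufs4 and the assembly factor Ndufaf5 then no longer passed, and the assembly factor Ndufaf8 rose by 0.83.

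Ndufa1, a small single-span subunit of the membrane arm encoded on chromosome X, showed the largest rise of a complex I gene. Its level ran from 8.02 to 9.30 (median 8.31) in RS_wt, from 7.65 to 9.48 (8.14) in RS_mut, from 9.84 to 10.16 (9.99) in CS_wt and from 9.90 to 10.42 (10.17) in CS_mut. Every condensing array stood above every round array. The log2 difference was 1.49 ± 0.26 (SE), a 2.80-fold rise, in wild type (adjusted p = 1.07e-05) and 1.75 ± 0.26 in the knock down (8.81e-07). In the non-normalised table the same probe read 424 to 925 intensity units in RS_wt and 838 to 1011 in CS_wt, so before normalisation the groups overlapped.

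Ndufa3, another small membrane-arm subunit, ran from 8.25 to 9.92 (median 8.62) in RS_wt, 8.04 to 9.999 (8.62) in RS_mut, 10.15 to 10.58 (10.41) in CS_wt and 10.35 to 10.78 (10.60) in CS_mut. After normalisation the stages did not overlap in either genotype, and RS_wt 1, RS_wt 2, RS_mut 11 and RS_mut 12 were the 4 highest round arrays. Before normalisation they overlapped in both. The probe read 454 to 1335 intensity units in RS_wt and 1024 to 1297 in CS_wt, and 386 to 1325 in RS_mut and 1255 to 1597 in CS_mut. It rose by 1.44 ± 0.29 in wild type (adjusted p = 7.92e-05) and by 1.66 ± 0.29 in the knock down (1.25e-05), and its second probe gave 1.59 and 1.77.

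Ndufv3, an accessory subunit of the peripheral arm that sits beside the flavin-carrying subunits, ran from 9.06 to 10.37 (median 9.40) in RS_wt, 8.71 to 10.29 (9.25) in RS_mut, 10.78 to 11.06 (10.99) in CS_wt and 10.82 to 11.02 (10.94) in CS_mut. Stages again did not overlap after normalisation. Before it the probe read 723 to 1852 intensity units in RS_wt and 1594 to 2011 in CS_wt, which overlapped. In the knock down it read 554 to 1606 in RS_mut and 1634 to 2052 in CS_mut, without overlap. It rose by 1.36 ± 0.23 in wild type (adjusted p = 7.03e-06) and by 1.47 ± 0.23 in the knock down (2.12e-06). A second probe gave 1.47 in wild type, and another, above background on 12 of 24 arrays, gave 0.14 with an adjusted p of 0.499 over probes.

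Ndufa4, the complex IV subunit, ran from 6.90 to 8.17 (median 7.75) in RS_wt, 6.98 to 8.15 (7.40) in RS_mut, 8.73 to 9.37 (9.21) in CS_wt and 9.22 to 9.73 (9.44) in CS_mut. After normalisation no condensing array overlapped a round one. Before it the probe read 238 to 466 intensity units in RS_wt and 435 to 643 in CS_wt, which overlapped. In the knock down it read 242 to 452 in RS_mut and 590 to 778 in CS_mut, without overlap. Its rise was 1.46 ± 0.20 in wild type (adjusted p = 2.61e-07) and 1.93 ± 0.20 in the knock down (1.91e-09), the smallest adjusted p of the 41 genes in both.

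Ndufa13, a membrane-arm subunit also known as GRIM-19, ran from 12.41 to 13.13 (median 12.72) in RS_wt, 12.18 to 13.40 (12.70) in RS_mut, 13.55 to 13.73 (13.67) in CS_wt and 13.51 to 13.78 (13.67) in CS_mut. It rose by 0.88 ± 0.15 in wild type (adjusted p = 9.72e-06) and by 0.84 ± 0.15 in the knock down (1.98e-05). The other rises in wild type were Ndufb7 at 1.30, Ndufb10 at 0.74, Ndufa11 at 0.73, Ndufs8 at 0.63, Ndufa10 at 0.61, Ndufs6 at 0.52 and Ndufb4 at 0.38. Ndufs8, which binds iron-sulphur clusters near the ubiquinone site, was the core subunit among them. Ndufb4 was above background on 8 of 24 arrays, 1 of them in RS_wt and 0 in RS_mut, and its adjusted p of 0.0484 passed the threshold under 13 of 38 other settings of the processing.

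The groups of wild-type arrays did not overlap, condensing above round, for 9 of 41 Nduf genes (22%, against 20.8% of all genes). Condensing stood below round without overlap for 0 Nduf genes (against 22.3% of all genes). In the knock down these numbers were 10 of 41 (24.4%, against 19.5% of all genes) and 0 (against 21.2%).

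Among the fallers, Ndufv2, a core subunit that carries an iron-sulphur cluster beside the flavin site, ran from 12.28 to 13.09 (median 12.96) in RS_wt, 12.25 to 12.92 (12.83) in RS_mut, 12.33 to 12.47 (12.37) in CS_wt and 12.34 to 12.55 (12.40) in CS_mut. Apart from RS_wt 3 every wild-type round array stood above every wild-type condensing array. Its difference was -0.49 ± 0.13 in wild type (adjusted p = 0.00177) and -0.25 ± 0.13 in the knock down (0.0914).

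Ndufs3, a core subunit of the peripheral arm, ran from 10.50 to 11.31 (median 11.20) in RS_wt and 10.51 to 10.82 (10.60) in CS_wt, again with RS_wt 3 alone below the condensing range. It ran from 10.38 to 11.37 (10.99) in RS_mut and 10.54 to 10.88 (10.71) in CS_mut, with overlap. The differences were -0.44 ± 0.15 (adjusted p = 0.0117) and -0.23 ± 0.15 (0.180).

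Ndufa9, a peripheral-arm subunit at the junction with the membrane arm, ran from 11.18 to 11.64 (median 11.53) in RS_wt, 10.84 to 11.62 (11.34) in RS_mut, 10.85 to 11.33 (10.98) in CS_wt and 10.90 to 11.36 (11.05) in CS_mut. It fell in wild type, by 0.45 ± 0.12 (adjusted p = 0.00234), and differed by -0.24 ± 0.12 in the knock down (0.102).

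Ndufaf7, a methyltransferase that acts in complex I assembly, had the largest fall. It ran from 8.09 to 8.55 (median 8.28) in RS_wt, 7.69 to 8.47 (8.13) in RS_mut, 7.33 to 8.12 (7.79) in CS_wt and 7.59 to 8.04 (7.89) in CS_mut, overlapping in both genotypes. The differences were -0.53 ± 0.14 (adjusted p = 0.00127) and -0.25 ± 0.14 (0.106). The other fallers were Ndufaf5 at -0.44, which hydroxylates Ndufs7 during assembly, Ndufaf1 at -0.34, a membrane-arm assembly factor, and, by its brightest probe, Ndufs4 at -0.43.

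Ndufs4, an accessory subunit of the peripheral arm whose loss causes a Leigh-like disease in mice, had 4 probes that disagreed. In wild type the probe used, the one with the highest mean signal, differed by -0.43 ± 0.16 (adjusted p = 0.0227), and the other probes differed by 0.26, 0.36 and -0.03. In the knock down the 4 probes differed by -0.03, 0.32, 0.41 and 0.16. With the mean of the probes as the gene value, the wild-type difference turned to 0.04 (adjusted p = 0.830), so its place among the 7 fallers rests on the choice of probe.

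Of the remaining genes, Ndufab1, the acyl carrier protein that is also needed for lipoic acid synthesis, ran from 9.93 to 11.17 (median 10.47) in RS_wt and 10.70 to 11.15 (10.85) in CS_wt, and from 9.61 to 11.08 (10.53) in RS_mut and 10.76 to 11.14 (10.98) in CS_mut. Its differences were 0.31 ± 0.20 (adjusted p = 0.181) and 0.45 ± 0.20 (0.0511). Ndufaf2, an assembly factor of the peripheral arm, ran from 9.65 to 10.37 (median 10.17) in RS_wt and 9.71 to 10.19 (10.03) in CS_wt, with a difference of -0.13 ± 0.16 (adjusted p = 0.510).

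**Figure D2:**
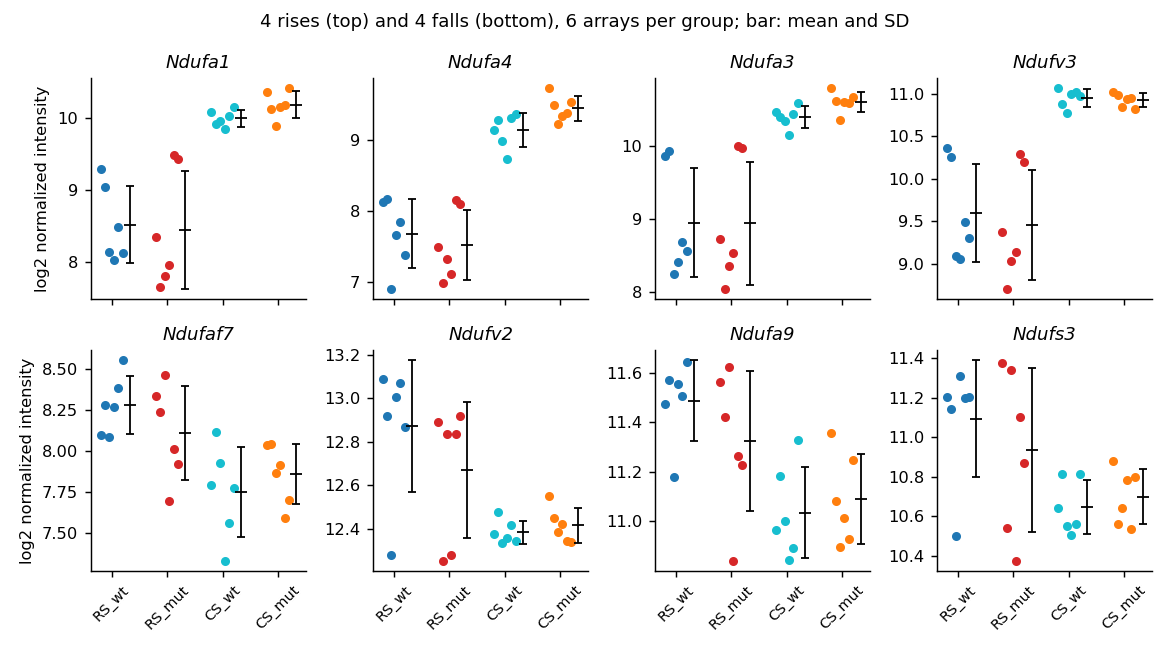
Log2 normalised intensity is plotted for every array of the 4 groups for the 4 largest rises (top) and 4 largest falls (bottom) of Nduf genes in wild type, with the mean and SD of 6 arrays. In the top panels all condensing arrays lie above all round arrays. In the bottom panels the stages overlap, and RS_wt 3 is the lowest RS_wt array of Ndufv2 at 12.28, of Ndufa9 at 11.18 and of Ndufs3 at 10.50.

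The same change in the knock down gave 15 risers among the 41 Nduf genes (36.6%) and 0 fallers, where 30.5% of all genes rose and 32.4% fell, 62.9% in all. The median log2 difference was 0.37 (0.23 without RS_mut 8), against -0.01 over all genes. Called in both genotypes were 11 rises. Ndufb4 rose in wild type alone by this count, and Ndufaf3, Ndufb9, Ndufc2 and Ndufs7 in the knock down alone, at 0.37, 0.68, 0.84 and 0.50. The call of Ndufs7 passed under 12 of 39 other settings. The 7 wild-type fallers missed the threshold in the knock down, at -0.27 to -0.03. The test of the difference between the genotypes, given further on, passed for 0 Nduf genes.

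These counts moved with the round arrays that stood apart. Without RS_wt 3, RS_mut 8 and RS_mut 10, wild type had 10 risers and 10 fallers (31.1% and 35.5% of all genes) and the knock down 12 risers and 8 fallers (29.8% and 32.8%), with 10 genes higher and 7 lower in both. Without RS_wt 1, RS_wt 2, RS_mut 11 and RS_mut 12, wild type had 20 risers and 4 fallers (29.7% and 32.6%) and the knock down 27 risers and 1 faller (30.8% and 32.2%), with 20 genes higher and 1 lower in both. The scaling of the arrays moved them too. Scaling each array by its median over all probes took the median of all genes to -0.31 in wild type, left 28.3% of calls as rises where quantile normalisation gave 47.3%, and gave 6 risers and 15 fallers among the Nduf genes. In the knock down the same scaling gave 9 risers and 8 fallers, with 9 of the 15 calls shared, and no scaling gave 7 and 8, with 7 shared. Median scaling over the probes kept gave 13 risers and 5 fallers in wild type, with 56.1% of all calls as rises, and 17 and 2 in the knock down.

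Under every one of 39 other settings tried, 6 genes rose in wild type: Ndufa1, Ndufa3, Ndufa4, Ndufa13, Ndufb7 and Ndufv3. All 6, and Ndufa11, also rose in the knock down under every setting. Ndufa9, Ndufaf1 and Ndufaf7 fell in wild type under every setting, and no Nduf gene did so in the knock down. The settings share most of their arrays, so this is a statement on processing and not on new samples.

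Markers of other cells moved with stage. All 10 tested Sertoli cell markers of 16 listed were higher in condensing samples (median 2.98), with a summed log2 level of 62.6 to 67.6 in RS_wt and 63.3 to 70.0 in RS_mut against 91.8 to 93.8 in CS_wt and 93.7 to 95.5 in CS_mut. All 5 tested erythroid markers of 6 were higher (median 5.97), with sums of 30.1 to 36.0 and 31.6 to 38.3 in the round groups against 56.0 to 57.0 and 57.1 to 58.3 in the condensing groups. Higher in wild type were also 2 of 3 Leydig, 11 of 13 leukocyte, 7 of 8 stromal and 6 of 8 endothelial markers tested, of 8, 16, 13 and 9 listed. Their sums ran from 17.5 to 21.3, 78.3 to 84.0, 47.6 to 49.9 and 45.4 to 47.2 in RS_wt, and from 24.5 to 25.4, 97.1 to 103, 58.7 to 61.2 and 52.1 to 54.2 in CS_wt. Among their markers, Amh and Ctsl (Sertoli), Star and Hsd3b1 (Leydig), Ptprc (leukocyte) and Col3a1 and Tagln (stromal) were above background on 0 of 24 arrays. Markers such as Dhh (Sertoli), Slc4a1 (erythroid), Myh11 and Pdgfra (stromal) and Emcn (endothelial) passed the filter on detection mainly through condensing arrays. For such markers the filter itself favours a higher level in condensing samples. Markers of pachytene and meiotic spermatocytes gave 3 higher and 6 lower of 11 tested, of 14 listed (median -0.54), with sums of 107 to 112 in RS_wt, 106 to 113 in RS_mut, 106 to 109 in CS_wt and 105 to 108 in CS_mut. Spermatid markers gave 4 higher and 5 lower of 13 tested, of 14 listed (median -0.04). Their sums ran from 172.6 to 174.0 in RS_wt and 173.2 to 174.2 in RS_mut. In CS_wt they ran from 170.6 to 172.0 and in CS_mut from 170.6 to 170.8. The part of cells other than spermatids in the changes of Nduf genes was not tested.

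The other proteins of the respiratory chain gave mixed counts in wild type, where 30.3% of all genes rose and 33.8% fell. Of 7 tested assembly factors of complex I with other names 3 rose and 2 fell, with Dmac1 at 0.97 and Dmac2 at -0.80 at the ends. Of 7 complex II genes 2 rose and 1 fell, with the assembly factors Sdhaf1 at 0.71 and Sdhaf4 at -0.59 at the ends. Of 13 complex III genes 4 rose and 3 fell, of 21 complex IV genes 7 rose and 4 fell, and of 14 ATP synthase genes 4 rose and 2 fell. Of 11 genes of general mitochondrial content 4 rose and 6 fell (median -0.46), and of 8 regulators of respiratory genes 1 rose and 4 fell (median -0.25).

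The risers and fallers in wild type also differed in median gene length, a feature the choice of genes did not use. Their ranges overlapped, at 2364 to 34340 bases for risers and 7394 to 100300 for fallers, with 1491 to 106064 for the others. The difference was not tested, and length was not set against stage over all genes. The genomic span had a median of 6627 bases over the 12 risers, 22765 bases over the 7 fallers (16856 without Ndufs4) and 7690 bases over the 21 others, the pseudogene Ndufs5-ps left out. Span and log2 difference had a Spearman rho of -0.49 across 40 genes, which is a description across genes that share the same 24 arrays. The GC content of the promoter had a rho of -0.12 across 38 genes.

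Promoters were read for 39 of the 44 genes from RefSeq (GRCm38.p6), as 250 bases before to 50 bases after the annotated start, and searched on both strands for 4 motifs of factors known to act on respiratory genes. The letters AAGATGGC, the core recognised by YY1, stood in a window of 8 of the 39 Nduf genes (20.5%), of 5.09% of the genes tested and of 3.19% of all 27025 genes with a window. GCGCANGCG, for NRF1, stood in windows of 9 genes (23.1%, against 14.03% and 7.03%), and CCGGAAG, for ETS factors such as GABPA, in those of 6 (15.4%, against 18.6% and 9.93%). The YY1 letters lay in each case on the strand of the gene, just after the start, and the stretches are shown because they recur at that place in genes that rose, fell or did not pass. Capitals mark the motif, and the base given is that of its first letter, with the start as base 1.
Ndufa3, chr7:3617384-3617413, plus strand, base 23: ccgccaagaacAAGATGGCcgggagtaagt
Ndufs6, chr13:73328433-73328462, minus strand, base 34: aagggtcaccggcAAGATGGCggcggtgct
Ndufa9, chr6:126849097-126849126, minus strand, base 30: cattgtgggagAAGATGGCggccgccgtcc
Ndufs4, chr13:114388045-114388074, minus strand, base 36: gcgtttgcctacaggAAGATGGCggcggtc
Ndufs7, chr10:80249462-80249491, plus strand, base 25: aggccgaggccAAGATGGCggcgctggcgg
Ndufaf8, chr11:120098933-120098962, plus strand, base 11: aggcagggcccAAGATGGCggcgccctcga
Ndufb8, chr19:44555393-44555422, minus strand, base 39: tgaaccgcggagaaggtgAAGATGGCtgcc
Ndufc1, chr3:51408915-51408944, minus strand, base 23: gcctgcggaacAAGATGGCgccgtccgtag

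Of these 8 genes, Ndufa3 and Ndufs6 rose in wild type by 1.44 and 0.52, Ndufa9 fell by 0.45, Ndufs4 gave opposite signs between probes, and the other 4 had differences of -0.26 to 0.43 that did not pass. The letters are a match of sequence, and occupancy of these places was not measured.

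TGACGTCA, the full cyclic AMP response element bound by CREB, stood in windows of 3 genes (7.69%, against 3.51% of genes tested and 2.03% of all). These stretches are shown because CBP was first known as a partner of CREB and is a target of the knock down. Capitals mark the element, and its first letter lies at -67, -158 and -14 from the start.
Ndufa10, chr1:92473792-92473851, minus strand: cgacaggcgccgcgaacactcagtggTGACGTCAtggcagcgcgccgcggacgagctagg
Ndufa11, chr17:56717578-56717637, plus strand: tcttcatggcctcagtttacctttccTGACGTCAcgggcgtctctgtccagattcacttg
Ndufb2, chr6:39592525-39592584, plus strand: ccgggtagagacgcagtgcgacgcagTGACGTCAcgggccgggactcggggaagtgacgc

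Knock down minus wild type, these 3 genes had log2 differences of 0.03, -0.21 and -0.21 in round cells and of -0.15, 0.11 and -0.28 in condensing cells, each with an interval that held 0.

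In round spermatids the knock down changed no Nduf gene: 0 of 41 passed, as did 0 of 10759 genes (0%) in limma. At an unadjusted p under 0.05 there were 388 genes (3.61%) and 1 Nduf gene, Ndufaf3. The log2 differences of the 41 genes ran from -0.32 to 0.06 with a median of -0.15 (all genes 0.003), and 38 lay below 0. The groups did not overlap for 0 Nduf genes in either direction (0.121% of all genes higher and 0.0651% lower). Without RS_mut 8 the median was -0.005 and 21 lay below 0, and with other single arrays left out it ran from -0.27 (without RS_mut 11) to -0.06 (without RS_wt 2). Without RS_wt 3, RS_mut 8 and RS_mut 10 it was -0.01, with 19 genes above 0. Leaving out RS_wt 1, RS_wt 2, RS_mut 11 and RS_mut 12 instead took it to -0.21, with 1 gene above 0. For the median Nduf gene the 95% interval reached 0.37 to either side, with an error that pools the spread of all 4 groups. The median SD of an Nduf gene was 0.40 in RS_wt and 0.49 in RS_mut against 0.15 in CS_wt and 0.14 in CS_mut. The pooled interval may therefore be too narrow for round cells and too wide for condensing cells.

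Ndufaf3, an assembly factor of the ubiquinone module, ran from 8.28 to 8.64 (median 8.52) in RS_wt and from 8.01 to 8.38 (8.24) in RS_mut, overlapping over a small range. Its difference was -0.29 ± 0.11 (unadjusted p = 0.0114 in limma, adjusted p = 0.999). Ndufs4 ran from 10.87 to 11.88 (median 11.69) in RS_wt and 10.68 to 11.63 (11.49) in RS_mut, with -0.32 ± 0.16. Ndufaf5 ran from 6.89 to 7.80 (median 7.45) in RS_wt and 6.55 to 7.84 (7.20) in RS_mut, with -0.31 ± 0.16. Both had an adjusted p of 0.999 and groups that overlapped over most of their range.

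In condensing spermatids 0 of 41 Nduf genes passed, where 58 of 10759 genes did (0.539%, with 28 higher and 30 lower). At an unadjusted p under 0.05 there were 948 genes (8.81%) and 0 Nduf genes. The differences ran from -0.28 to 0.31 with a median of 0.05 (all genes 0.01), and 26 lay above 0. Of the cell markers tested, 2 of 8 endothelial, 1 of 13 leukocyte and 1 of 8 stromal were lower, and 1 stromal was higher. Summed endothelial markers ran from 52.1 to 54.2 in CS_wt and 49.9 to 52.0 in CS_mut, without overlap. Erythroid sums did not overlap either, at 56.0 to 57.0 and 57.1 to 58.3. Sums of the other marker lists overlapped. The part of these cells in the Nduf values was not tested.

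Ndufa4 had the smallest p, with 8.73 to 9.37 (median 9.21) in CS_wt against 9.22 to 9.73 (9.44) in CS_mut and a difference of 0.31 ± 0.20 (adjusted p = 0.724). Ndufa5, a peripheral-arm subunit, was the single Nduf gene whose groups did not overlap (0.623% of genes were so placed, higher in the knock down, and 0.688% lower). It ran from 10.84 to 11.25 (median 11.15) in CS_wt and 11.28 to 11.57 (11.37) in CS_mut, and from 10.72 to 11.92 (11.05) in RS_wt and 10.08 to 11.77 (10.88) in RS_mut. Its difference in condensing cells was 0.28 ± 0.22 (adjusted p = 0.799), where the error pools condensing SDs of 0.14 and 0.12 with round SDs of 0.51 and 0.62, and a fit on the 12 condensing arrays alone gave an adjusted p of 0.225. Its second probe gave 0.03. Ndufb3, a membrane-arm subunit, ran from 7.96 to 8.42 (median 8.26) in CS_wt and 8.09 to 8.73 (8.52) in CS_mut, with 0.28 ± 0.23 (adjusted p = 0.812).

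**Figure D3:**
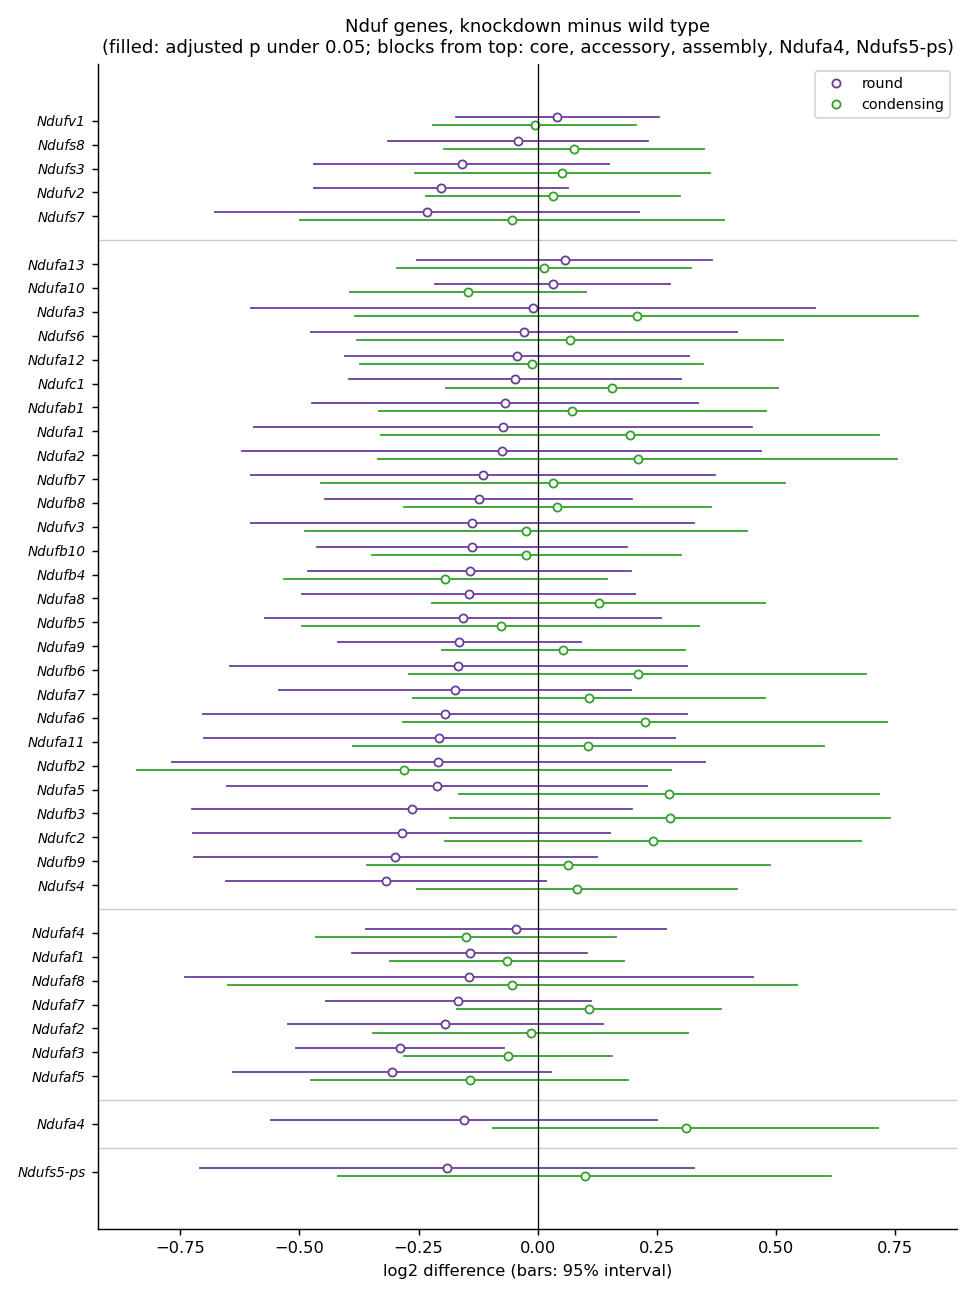
The log2 difference, knock down minus wild type, of each of the 41 Nduf genes is plotted with its 95% interval for round (purple) and condensing (green) spermatids. No point is filled, as 0 passed in either stage, and in round spermatids 38 of 41 points lie left of 0, a count that falls to 21 without RS_mut 8. The genes right of 0 number 1 when RS_wt 1, RS_wt 2, RS_mut 11 and RS_mut 12 are left out.

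The difference between both knock-down effects, condensing minus round, passed for 0 of 41 Nduf genes and for 5 of 10759 genes (0.0465%), with 747 genes and 0 Nduf genes at an unadjusted p under 0.05. The values had a median of 0.20 over the Nduf genes (0.01 over all genes), and 35 lay above 0. The median was 0.07 with 27 above 0 without RS_mut 8, 0.11 without RS_wt 1, 0.12 without RS_wt 2 or RS_mut 10, and 0.05 without RS_wt 3, RS_mut 8 and RS_mut 10. It was larger, at 0.29, without RS_wt 3, at 0.28 without RS_mut 11 and at 0.27 without RS_mut 12. Without RS_wt 1, RS_wt 2, RS_mut 11 and RS_mut 12 it was 0.26 with 37 above 0. Ndufc2, a membrane-arm subunit with 8.08 to 9.22 (median 8.97) in RS_wt, 7.55 to 9.20 (8.67) in RS_mut, 8.88 to 9.44 (9.12) in CS_wt and 9.19 to 9.52 (9.41) in CS_mut, had the smallest p, at 0.53 ± 0.30 (adjusted p = 0.776). Ndufs4 and Ndufb3 followed at 0.40 ± 0.23 (0.779) and 0.54 ± 0.32 (0.788), with Ndufs4 at 0.18 when its probes were averaged.

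Nduf genes varied more between round arrays than between condensing arrays. The median SD of an Nduf gene over 6 arrays was 0.40 in RS_wt and 0.49 in RS_mut against 0.15 in CS_wt and 0.14 in CS_mut, while the median over all genes was 0.23, 0.26, 0.19 and 0.19. The SD was larger in round than in condensing spermatids for 36 of 41 Nduf genes in wild type (58.3% of all genes) and for 39 of 41 in the knock down (66.9%). Ndufa3 reached an SD of 0.75 in RS_wt and 0.84 in RS_mut against 0.14 in both condensing groups, and Ndufaf8 reached 0.93 in RS_mut against 0.09 in CS_mut.

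**Figure D4:**
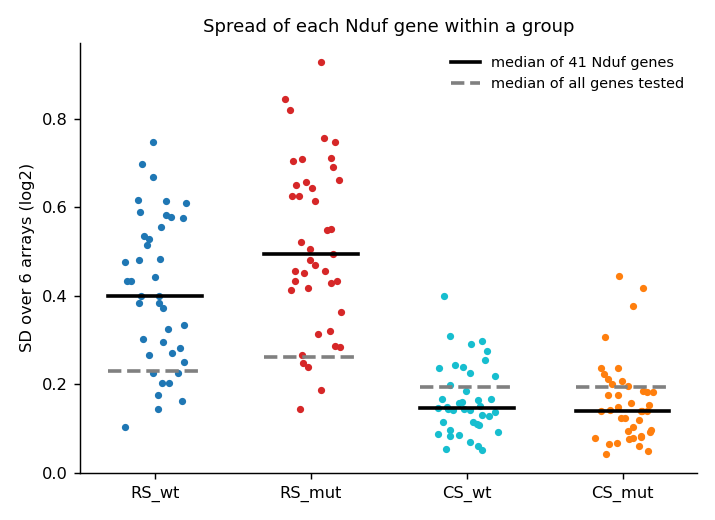
Each point is the SD of an Nduf gene over the 6 arrays of a group, in log2 units, with the median of the 41 genes as a black bar and the median of all genes tested as a grey dashed bar. The black bars stand at 0.40 (RS_wt), 0.49 (RS_mut), 0.15 (CS_wt) and 0.14 (CS_mut).

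The spread came from arrays on which the genes moved together. Taking each gene as its deviation from its group median, the median Nduf gene stood at 0.37 and 0.34 on RS_wt 1 and 2, at -0.50 on RS_wt 3 and at -0.05, 0.09 and -0.15 on RS_wt 4, 5 and 6. On the knock-down arrays RS_mut 7 to 12 it stood at 0.03, -0.62, -0.02, -0.29, 0.57 and 0.46. On the 12 condensing arrays it stayed between -0.09 and 0.08. All 41 genes were below their group median on RS_wt 3, and 37 of 41 were so on RS_mut 8 and on RS_mut 10. The median deviation of all genes was between -0.02 and 0.02 on every array.

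The non-normalised table placed the same 3 arrays lowest and the same 4 highest among the round arrays. The median Nduf intensity was 1673 and 1279 units on RS_wt 1 and 2, 662 on RS_wt 3, 554 and 718 on RS_mut 8 and 10 and 1402 and 1171 on RS_mut 11 and 12. It ran from 850 to 1118 units over the condensing arrays. The 3 low arrays had 17871 to 18411 probes above background, and the 4 high arrays had 16264 to 16840. The remaining round arrays had 17294 (RS_wt 5) to 18142 (RS_wt 4), so RS_wt 4 lay within the range of the low arrays.

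**Figure D5:**
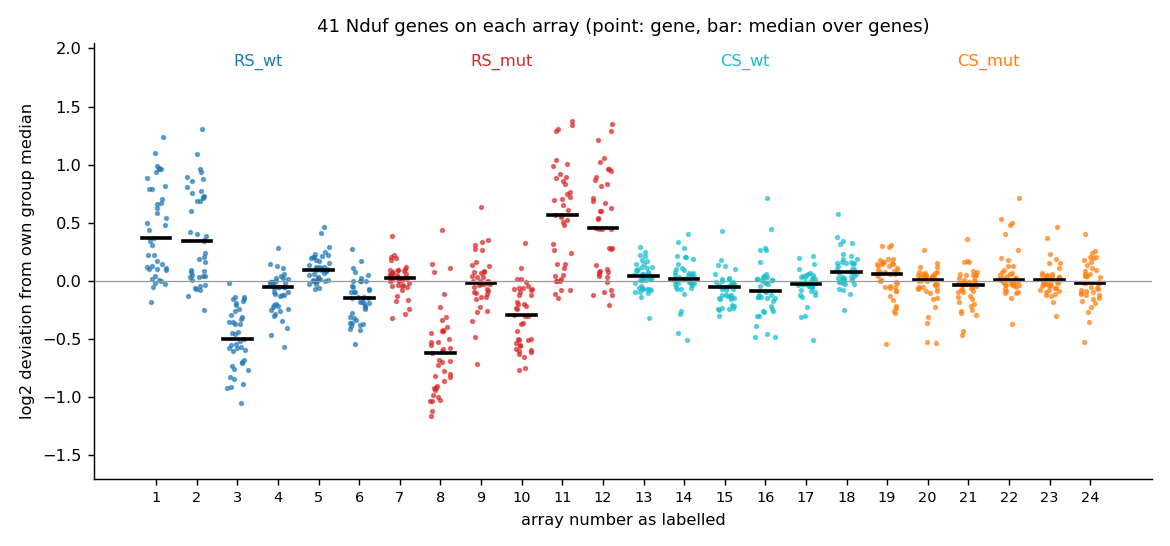
Each point is an Nduf gene on an array, as its log2 deviation from the median of its own group, and the black bar is the median over the 41 genes. The bars stand at -0.50, -0.62 and -0.29 on arrays 3, 8 and 10, at 0.34 to 0.57 on arrays 1, 2, 11 and 12, and within 0.09 of 0 on all condensing arrays.

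Genes of other complexes were also displaced on the low arrays, to different extents. On RS_wt 3, RS_mut 8 and RS_mut 10 the median deviation was -0.59, -0.64 and -0.50 for complex II, -0.18, -0.15 and -0.23 for complex III, -0.38, -0.60 and -0.20 for complex IV and -0.48, -0.57 and -0.49 for ATP synthase. On RS_wt 1, RS_wt 2, RS_mut 11 and RS_mut 12 complex II stood at 0.23, -0.01, 0.11 and 0.15, complex III at -0.02, 0.06, 0.20 and 0.25, complex IV at 0.30 to 0.42 and ATP synthase at 0.21 to 0.35. General mitochondrial content genes stood at 0.05, 0.18 and -0.17 on the low arrays, and complex I assembly factors with other names at 0.02, -0.06 and -0.06. Erythroid markers stood at -0.91, -0.57 and -1.29 on the 3 low arrays and at 0.75, 0.66, 0.56 and 0.59 on the 4 high ones, while meiotic spermatocyte markers stood at 0.20 on each of the low arrays and at -0.11, -0.14, -0.09 and -0.19 on the high ones. The erythroid markers also stood at 0.58 on RS_mut 7 and at -0.56 on RS_mut 9, where the Nduf genes were close to their group median. Sertoli markers stood at -0.24, -0.32 and -0.16 on the low arrays and at -0.04, 0.001, 0.27 and 0.14 on the high ones. Leydig markers stood at 0.27, 0.04 and -0.12 on the low arrays and at -0.85, -1.01, -0.04 and 0.28 on the high ones. Leukocyte, stromal and endothelial markers stood between -0.43 and 0.12 on the low arrays and between -0.11 and 0.06 on the high ones. Spermatid markers stayed between -0.05 and 0.02 on the 3 low and 4 high arrays. The part of other cells, RNA quality or handling in this spread was not tested, and the labels give no batch for the arrays.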

How the data were processed

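The deposited table of non-normalised values gives each probe, per the file headers, a mean bead intensity and a detection p-value on every array. A second table deposited by the authors holds intensity values that its quantiles show to be quantile normalised. Scanner software is not given in the sources used here. Intensities were background corrected, offset by 16, quantile normalised and put on the log2 scale with neqc (R 4.3.3, limma 3.58.1). The 19086 probes detected at p under 0.05 on 6 or more arrays were kept, and the probe with the highest mean level stood for a gene. A model of 4 group means was fitted to 10759 genes, with 5 contrasts, two-sided moderated tests and Benjamini-Hochberg adjustment over all genes. The spread of each gene was pooled over all groups. The model was tested on simulated data with independent normal noise and the same spread in all groups. That simulation lacked the larger round spread and the shared shifts of single arrays, so it does not test the fit under them. Gene names came from the platform annotation, and all 44 Nduf symbols were found in RefSeq (GRCm38.p6). The number of arrays limits the precision. Retrocopies and pseudogenes with near-identical sequence may share signal with some Nduf probes.

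The members, roles and gene lists were chosen with earlier results of these data known. Described in full were the largest 4 rises and 4 falls called in wild type, the 3 smallest p-values of each contrast on the knock down, the member with the highest mean signal of each role, the tested member on chromosome X, Ndufs4 for its probes, and Ndufa4 and Ndufab1. Alternatives covered background, scaling, detection filter, probe summary, array weights, a block of consecutive arrays and left-out arrays.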

Additional observations from a re-analysis of the deposited data

Results flagged for a closer look

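In 4 of 72 groups of 6 arrays tested, 1 array lay apart from the other 5 by a gap that exceeded Dixon's critical value, and chance flags about 1 group in 20. All 4 were RS_wt 3, in genes that fell in wild type or had disagreeing probes. On that array Ndufs4 stood at 10.87 against 11.54 to 11.88 on the other 5 wild-type round arrays. Ndufv2 stood at 12.28 against 12.87 to 13.09. Ndufa9 stood at 11.18 against 11.48 to 11.64, and Ndufs3 at 10.50 against 11.15 to 11.31. Without RS_wt 3, RS_mut 8 and RS_mut 10 the stage differences in wild type were -0.58 for Ndufs4, -0.61 for Ndufv2, -0.51 for Ndufa9 and -0.56 for Ndufs3.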

How the results depend on the processing

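No paired analysis was possible because the replicate numbers 1 to 24 occur once each and are not shared between groups. Under every setting 0 Nduf genes passed in either knock-down contrast or in the difference between both effects. Nduf genes called in the wild-type stage comparison numbered 16 to 25, and 14 to 28 in the knock down: 14 to 23 with 1 array left out, the 23 (22 higher, 1 lower) without RS_mut 11, and 28 without RS_wt 1, RS_wt 2, RS_mut 11 and RS_mut 12. The count of all genes called in condensing knock-down spermatids (58) became 22 with median scaling, 14 with no scaling, 21 with median scaling over kept probes, 36 with a detection p under 0.01 on 12 arrays, 116 with array weights, 22 with a block of consecutive arrays (correlation 0.148), 26 with the 2 groups alone and 105 without the 3 low arrays, and ran from 26 to 65 with 1 array left out. The count for the difference between both effects (5) became 3 with median scaling and with no scaling, 11 with no detection filter, 8 with the mean of probes, 16 with array weights, and 2 with the block, with median scaling over kept probes and without the 4 high arrays, and ran from 2 to 11 with 1 array left out. In round spermatids 1 gene passed without the 4 high arrays, and 0 to 1 with 1 array left out. Ndufs4 turned to 0.039 in the wild-type stage comparison with the mean of probes. The cause of these changes was not tested. Median scaling over kept probes and the left-out sets of arrays were chosen after seeing the data.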
